A study of Mus musculus with 9 samples.

Results

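The comparison described here set small RNA libraries of DROSHA knockout kidneys against those of wild-type kidneys at embryonic day 16.5 of the mouse. Its 6 libraries, 3 per genotype, are part of a series of 9. The other 3 libraries carry a DROSHA-E1147K transgene and enter here only through the shared estimate of spread in the statistical fit. Members were every name of a known mouse miRNA in these libraries, by raw read count. The 6 libraries held 1572 such names, of which 955 passed the filter on low counts and were tested. Controls were labelled wild type and knockouts DROSHA knockout, and the labels name no treatment. Mouse lines are not named in the labels, nor are the allele, a driver of recombination or the cells that lost DROSHA. Whole kidneys were frozen and extracted, so a value mixes all cell types, and fewer cells of a type cannot be told apart from less miRNA per cell. Nothing states that the 3 libraries of a genotype came from separate animals, so each p-value measures the spread between libraries, which may be technical.

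DROSHA is the nuclear ribonuclease of the Microprocessor complex. With its partner DGCR8 it cuts primary transcripts and frees the hairpin precursor, which DICER then cuts in the cytoplasm into a short duplex. One strand of the duplex is kept by an Argonaute protein, and its bases 2 to 8, the seed, pair with target mRNAs. A few precursors form without DROSHA, such as mirtrons, which are released by splicing. In the developing kidney, miRNAs are needed in nephron progenitors, in the collecting duct lineage and in podocytes. Genes of the miRNA processing pathway, DROSHA among them, are mutated in a share of Wilms tumors, a childhood kidney cancer.

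Each of the 6 libraries held 24350500 to 34896599 reads of known miRNAs under 1336 to 1389 names, and the tested names took 99.99% of them. Levels are given in CPM, counts per 1e6 miRNA reads after TMM scaling, which corrects the total of each library. Log2 fold changes are knockout over control. Replicates of both genotypes differed by more than read sampling, and knockout 3 stood apart. Over the miRNA names that reached a minimum of reads in the pair compared, its chi-square per degree of freedom was 4839 against knockout 1 and 3138 against knockout 2. The other pairs within a genotype ranged from 864 to 1905. Many of the results that this library touches are therefore also given without it, but not all. Drosha mRNA is not read by this assay, so the genotype labels could not be checked on the targeted gene. The kidney label was checked on markers. Every library contained tubule miRNAs, with the list summing to 4240.1 to 6694 CPM in controls and 1986 to 2822 CPM in knockouts. Epithelial miR-200 miRNAs summed to 35969.6 to 40671 CPM in controls and 13036 to 30756 CPM in knockouts, and endothelial miR-126 miRNAs to 45283 to 56517 CPM in controls and 34557 to 48795 CPM in knockouts. Markers of striated muscle were present in every library too, at 225 to 1266 CPM in controls and 465 to 10601 CPM in knockouts.

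The mature sequences shown are those of the miRNAs with the smallest p-values among names of at least 10 CPM, so that the seeds on the higher and the lower side can be compared. They are RefSeq entries (GRCm38.p6), written 5′ to 3′ with the seed, bases 2 to 8, in capitals. The 10 with higher levels in the knockout were the following.
miR-431-3p: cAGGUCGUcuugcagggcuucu
miR-134-3p: cUGUGGGCcaccuagucacc
miR-341-3p: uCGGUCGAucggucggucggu
miR-758-3p: uUUGUGACcugguccacua
miR-668-3p: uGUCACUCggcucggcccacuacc
miR-673-3p: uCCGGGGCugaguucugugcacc
miR-369-3p: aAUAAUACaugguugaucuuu
miR-666-3p: gGCUGCAGcgugaucgccugcu
miR-127-3p: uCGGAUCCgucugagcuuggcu
miR-431-5p: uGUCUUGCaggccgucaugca
The 10 with lower levels included 6 with an entry, and miR-23b-3p, miR-135b-5p, miR-187-3p and miR-378a-3p are named only.
miR-27b-3p: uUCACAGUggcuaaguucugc
miR-27b-5p: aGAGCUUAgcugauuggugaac
miR-92a-3p: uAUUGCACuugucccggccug
miR-181d-5p: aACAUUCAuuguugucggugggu
miR-30a-3p: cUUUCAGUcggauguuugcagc
miR-30c-2-3p: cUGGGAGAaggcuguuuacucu
No seed occurred more than once within either set. All 10 of the higher set lie on chromosome 12, from miR-673-3p at chr12:109572044-109572066 to miR-369-3p at chr12:109743466-109743486, on the plus strand. None of the 6 lower sequences does.

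No single miRNA passed edgeR's quasi-likelihood test after Benjamini-Hochberg adjustment, with 0 of 955 called higher and 0 called lower (0% each) and a smallest adjusted p of 0.108. At an unadjusted p under 0.05 there were 149 higher miRNAs (15.6% of those tested) and 96 lower ones (10.1%), together 25.7%. The 3 knockout and the 3 control libraries did not overlap for 123 higher miRNAs (12.9%) and 149 lower ones (15.6%). DESeq2, an alternative test on the same counts, called 74 higher (7.75%) and 39 lower (4.08%). Some of the miRNAs it called overlapped between the genotypes, 8 names of striated muscle among them. edgeR without knockout 1 called 44 higher and 4 lower of 1001 tested, the only fit with 1 library left out that gave calls. Of these 48, 35 belong to the imprinted Dlk1-Dio3 region described next, which held 101 of the 955 tested in the main fit. The median log2 fold change over all 955 was -0.03 with quartiles of -0.44 and 0.56. It was 0.04 without knockout 3, 0.19 when libraries were scaled to total miRNA counts, 0.09 with all counted reads and -0.15 when they were scaled on miRNAs that need no DROSHA. Of all miRNAs at that unadjusted p, 60.8% were higher under TMM, 80.7% when scaled to total counts, 72.9% when scaled to all counted reads and 57.1% under the DROSHA-independent scaling. limma voom, a further test on the same counts, had 101 higher and 103 lower (49.5% higher) at an unadjusted p under 0.05. It called 0 in each direction, with a smallest adjusted p of 0.112. By size alone, 156 miRNAs were more than 2-fold higher and 68 more than 2-fold lower. Positive log2 fold changes were found for 467 miRNAs (48.9%) and negative ones for 488 (51.1%). A name can pass the filter through a single genotype, so counts of list members cover the tested names alone and describe the lists without a test.

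**Figure D1:**
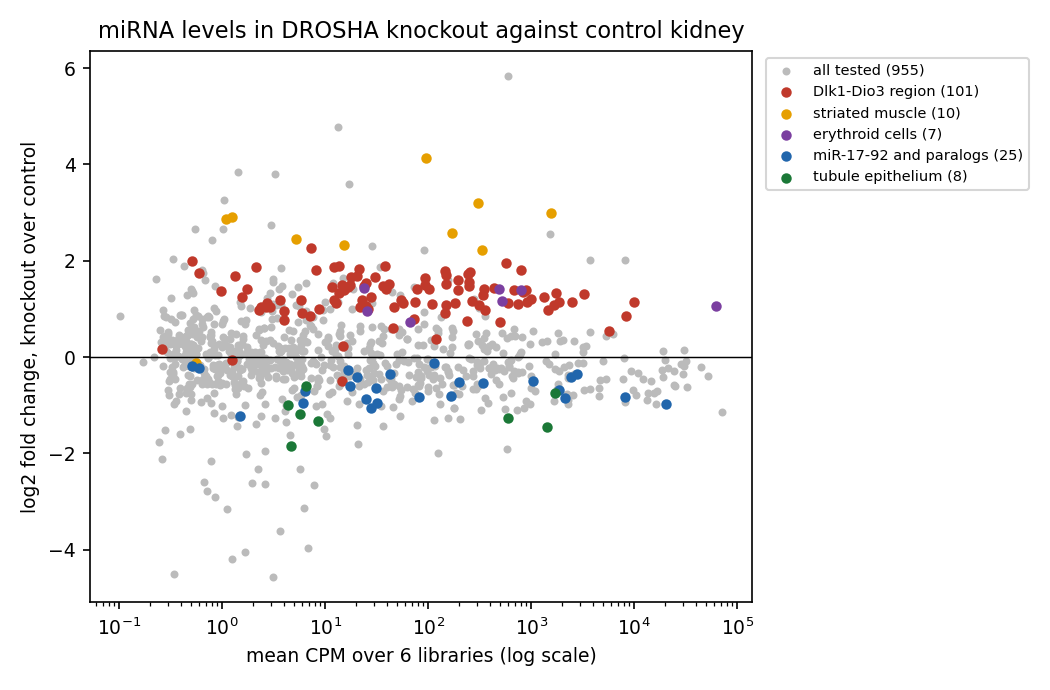
Log2 fold change of knockout over control (vertical axis) against the mean CPM of the 6 libraries on a log scale (horizontal axis), 1 point per tested miRNA, with 5 lists in colour. The Dlk1-Dio3 points lie above 0 at every level except for both arms of miR-1247, and all 25 points of the miR-17-92 clusters and all 8 of the tubule list lie below 0.

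miRNAs of the Dlk1-Dio3 region made up the largest group of higher values. The region is imprinted: its miRNAs are processed from long noncoding transcripts, among them Meg3, Rian and Mirg, made from the maternal chromosome in fetal tissues. Of 110 names on the list 101 were tested, 99 had positive log2 fold changes and 81 of these had an unadjusted p under 0.05 (80.2%, beside 15.6% of all miRNAs). The groups did not overlap for 61, or 60.4% of the tested names, all higher, beside 12.9% over all miRNAs. The median log2 fold change was 1.24, beside -0.03 over all miRNAs, and 0.81 without knockout 3. The summed level was 30691, 33251 and 35203 CPM in controls 1 to 3 and 41181, 57728 and 110162 CPM in knockouts 1 to 3. The 3 knockout libraries lay above the controls with knockout 1 nearest the controls and knockout 3 farthest. Both exceptions were the arms of miR-1247, which sits at the distal edge of the region near Dio3 and had log2 fold changes of -0.49 (5p) and -0.06 (3p). Knockout 3 was also the library with the most striated muscle miRNA (10601 CPM), whose part in these values was not tested.

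miR-127-3p, which is transcribed antisense to the retrotransposon-like gene Rtl1 and represses it, was the most abundant of the list (mature sequence at chr12:109592888-109592909). It was at 5777, 5646 and 7084 CPM in controls 1 to 3 and at 8993, 11247 and 20393 CPM in knockouts 1 to 3. No knockout library overlapped a control, and the log2 fold change was 1.13 (SE 0.29), or 0.81 without knockout 3. Its passenger arm miR-127-5p was at 4.99, 3.46 and 7.17 CPM in controls 1 to 3 and at 13.8, 5.41 and 38.3 CPM in knockouts 1 to 3, which overlapped.

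Also antisense to Rtl1 lies miR-431, where both arms ranked among the 10. The 5p arm was at 1667, 1852 and 2124 CPM in controls 1 to 3 and at 2647, 4593 and 6801 CPM in knockouts 1 to 3, with a log2 fold change of 1.32 (SE 0.34). The 3p arm, the rarer of the pair, was at 8.80, 8.21 and 10.9 CPM in controls 1 to 3 and at 20.8, 27.9 and 50.3 CPM in knockouts 1 to 3, with 1.82 (SE 0.41), the smallest p-value among higher miRNAs of at least 10 CPM. Neither arm overlapped between the genotypes, and knockout 3 was the highest library for both. Without it the log2 fold changes were 1.05 (5p) and 1.48 (3p).

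miR-134-3p comes from the hairpin of miR-134, known for its control of dendritic spines through Limk1. It was at 42.0, 40.8 and 57.4 CPM in controls 1 to 3 and at 76.8, 106.8 and 125.2 CPM in knockouts 1 to 3. The log2 fold change was 1.14 (SE 0.27), and it hardly depended on knockout 3 (1.07 without it). The 5p arm overlapped between groups, since control 2 at 561 CPM exceeded knockouts 1 and 2 at 458 and 545 CPM. miR-341-3p, from the proximal part of the region, was at 549.6, 549.7 and 606 CPM in controls 1 to 3 and at 878, 1397 and 1482 CPM in knockouts 1 to 3, with a log2 fold change of 1.14 (SE 0.27). Here knockouts 2 and 3 were nearly level and knockout 1 stood between them and the controls.

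The largest log2 fold change of the 10 belonged to miR-369-3p, from the distal part of the region, at 1.95 (SE 0.49). It was at 238, 242 and 222.97 CPM in controls 1 to 3 and at 439.8, 579 and 1699.7 CPM in knockouts 1 to 3. Knockout 3 was far above knockout 2, and the fold was 1.22 without it. The 5p arm overlapped, with knockout 1 at 1155 CPM below controls 1 and 3 at 1245 and 1212 CPM. miR-758-3p was at 15.4, 15.0 and 13.7 CPM in controls 1 to 3 and at 27.7, 38.0 and 73.9 CPM in knockouts 1 to 3 (log2 1.66, SE 0.40). miR-668-3p was at 67.6, 94.2 and 127 CPM in controls 1 to 3 and at 189, 227 and 457 CPM in knockouts 1 to 3 (log2 1.60, SE 0.39). For both, the order of the knockout libraries was the same as for miR-369-3p, and the folds without knockout 3 were 1.26 and 1.21.

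miR-666-3p was at 40.1, 29.3 and 65.6 CPM in controls 1 to 3 and at 89.0, 135 and 199.8 CPM in knockouts 1 to 3 (log2 1.65, SE 0.43), with a wide spread among controls. miR-673-3p, the proximal end of the set, was at 6.35, 7.88 and 7.98 CPM in controls 1 to 3 and at 13.3, 13.9 and 22.9 CPM in knockouts 1 to 3 (log2 1.18, SE 0.29). The other arms of both hairpins, and those of miR-341, miR-668 and miR-758, were also without overlap, with log2 fold changes of 1.5 for miR-666-5p, 1.79 for miR-673-5p, 1.18 for miR-341-5p, 1.24 for miR-668-5p and 2.0 for miR-758-5p. miR-668-5p and miR-758-5p were rare, below 3 CPM in every library. Among the most abundant of the list, miR-411-5p was at 5689, 5710.1 and 6185 CPM in controls 1 to 3 and at 6202, 9683 and 15965 CPM in knockouts 1 to 3 (log2 0.86, SE 0.31, 0.54 without knockout 3). miR-379-5p, at the start of the distal group, was at 3753, 6269 and 3914 CPM in controls 1 to 3 and at 4020.1, 5849.7 and 10353 CPM in knockouts 1 to 3 (log2 0.54, SE 0.37, 0.19 without knockout 3). Control 2 exceeded knockouts 1 and 2 there, so the groups overlapped. None of the miRNAs named in these paragraphs passed edgeR's test, with an adjusted p of 0.108 for each of the 10 and up to 0.407 for miR-379-5p. DESeq2 called 47 of the 101 higher, beside 7.75% of all miRNAs.

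By position, tested miRNAs of single loci with gaps of up to 50000 bases formed 2 long plus-strand groups on chromosome 12 (GRCm38.p6). The proximal one, at chr12:109563710-109618326, held 27 tested miRNAs of 15 hairpins, all positive, with a median log2 fold change of 1.19 and 15 without overlap. The distal one, at chr12:109709065-109747949, held 65 of 36 hairpins, again all positive, with a median of 1.33 and 43 without overlap. Their medians without knockout 3 were 0.84 and 0.76. Of all miRNAs tested, 12.9% were higher without overlap. Over the whole of chromosome 12, 108 of 121 tested miRNAs were positive, and the median of every other chromosome in the table lay between -0.41 (chromosome 14) and 0.25 (chromosome 9). A small minus-strand group inside the proximal one, of miR-3544 and miR-3071, had 4 positive miRNAs and a median of 1.09 (0.51 without knockout 3). These names lie opposite to miRNAs of the plus strand, and reads of the strands cannot be told apart if the counting did not use strand.

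**Figure D2:**
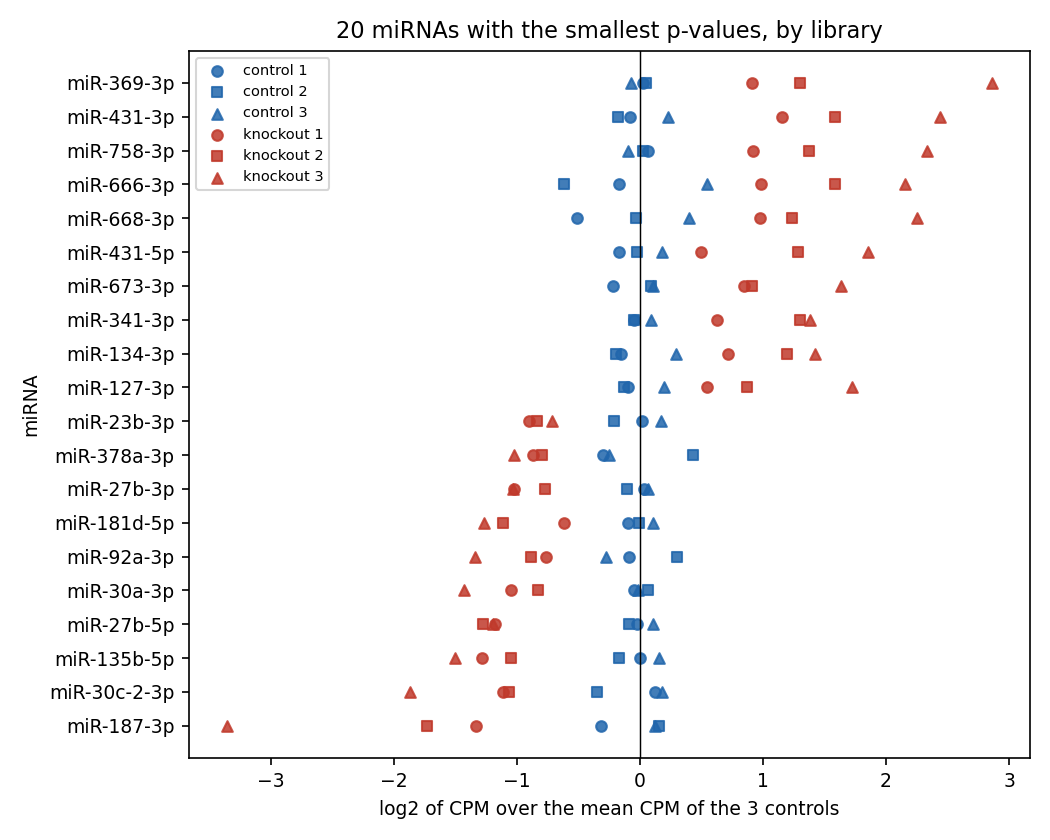
Level of the 10 higher and 10 lower miRNAs with the smallest p-values in each library (rows), as log2 of CPM over the mean of the 3 controls (horizontal axis); circles, squares and triangles are replicates 1, 2 and 3, blue for control and red for knockout. In every row the red symbols lie on 1 side of all blue ones, and knockout 3 is the outermost library in all 10 higher rows and in 8 of the 10 lower rows.

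The lower miRNAs came from several loci, and the miR-23b/27b/24-1 cluster of chromosome 13 gave 3 of the 10. miR-27 and miR-23 are known in endothelium and in fat cell formation. miR-27b-3p (mature sequence at chr13:63300760-63300780) was at 10970.4, 9949.8 and 11225 CPM in controls 1 to 3 and at 5269.7, 6265 and 5227 CPM in knockouts 1 to 3. All knockout libraries were far below all controls, with little spread in either group, and the log2 fold change was -0.94 (SE 0.18), with the smallest p-value of the 20. Its other arm, miR-27b-5p, was at 73.0, 70.0 and 80.2 CPM in controls 1 to 3 and at 32.9, 30.7 and 32.5 CPM in knockouts 1 to 3 (log2 -1.22, SE 0.27). miR-23b-3p was at 5916, 5074 and 6579 CPM in controls 1 to 3 and at 3143, 3278 and 3564 CPM in knockouts 1 to 3 (log2 -0.82, SE 0.16). These folds were the same in direction and close in size without knockout 3, at -0.80, -1.13 and -0.77. Of 4 tested miRNAs that map to this locus alone, all were negative, with a median of -0.99 and 3 without overlap (beside 15.6% of all miRNAs lower without overlap).

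The paralogous cluster miR-23a/27a/24-2 of chromosome 8 did not have the same values. The mature miR-27 sequences share their seed and differ at 1 position.
miR-27b-3p: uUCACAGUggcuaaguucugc
miR-27a-3p: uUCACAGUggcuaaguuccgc
miR-27a-3p was at 7211, 7858 and 9211 CPM in controls 1 to 3 and at 8523, 8499.7 and 6839 CPM in knockouts 1 to 3, overlapping, with a log2 fold change of -0.03 (SE 0.18). The ratio of miR-27b-3p to miR-27a-3p was 1.52, 1.27 and 1.22 in controls and 0.618, 0.737 and 0.764 in knockouts, a measure within each library that no scaling moves. That of miR-23b-3p to miR-23a-3p was 2.0, 1.60 and 2.11 in controls and 1.25, 1.04 and 0.831 in knockouts. Neither ratio overlapped between the groups. These pairs were chosen after their values were seen and are descriptions without a test. Because the rule for reads that match both names is not given, counts of such near-identical miRNAs are uncertain. miR-24-3p, made by both clusters, was at 5048, 4145 and 7567 CPM in controls 1 to 3 and at 3945, 2897 and 3909 CPM in knockouts 1 to 3 (log2 -0.64, SE 0.45, -0.37 without control 3), without overlap.

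miR-135b-5p, a Wnt pathway regulator through Apc, was at 217.4, 193.998 and 242 CPM in controls 1 to 3 and at 89.5, 105 and 76.7 CPM in knockouts 1 to 3, with a log2 fold change of -1.27 (SE 0.26). Its 3p arm was rare but also without overlap, at 4.12 CPM on average in controls and 1.07 CPM in knockouts (log2 -1.95, SE 0.44). miR-187-3p had the lowest fold of the 10, at -1.91 (SE 0.45). It was at 738, 1022 and 1000.5 CPM in controls 1 to 3 and at 365, 277 and 90.0 CPM in knockouts 1 to 3. Knockout 3 was the lowest, and the fold was -1.42 without it. Its 5p arm had a log2 fold change of -1.61 (SE 0.67). miR-181d-5p, which shares its seed with the abundant miR-181a-5p, was at 2788, 2959 and 3202 CPM in controls 1 to 3 and at 1949, 1382 and 1238 CPM in knockouts 1 to 3 (log2 -0.97, SE 0.21, -0.75 without knockout 3). miR-181a-5p itself overlapped, at 26498, 30919 and 31684 CPM in controls and 26535, 27353 and 27168 CPM in knockouts (log2 -0.14, SE 0.17). miR-378a-3p, made from an intron of the metabolic coactivator gene Ppargc1b, was at 13999, 23246 and 14507 CPM in controls 1 to 3 and at 9448, 9918 and 8469 CPM in knockouts 1 to 3 (log2 -0.89, SE 0.21). Its 5p arm overlapped, with a log2 fold change of -0.29 (SE 0.24). The edgeR adjusted p of the 10 lower miRNAs was 0.108 throughout.

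The miR-17-92 cluster and its paralogs, known for promoting proliferation and progenitor survival, were lower as a group. Of 28 names 25 were tested, all 25 had negative log2 fold changes, and 17 were without overlap (68.0%, beside 15.6% of all miRNAs). Their median was -0.64, and -0.41 without knockout 3, where 22 of 25 were negative. miR-92a-3p, by far the most abundant, was at 25381, 33408 and 22329 CPM in controls 1 to 3 and at 15906, 14668 and 10651 CPM in knockouts 1 to 3 (log2 -0.98, SE 0.21, and -0.72 without knockout 3). miR-93-5p, which is encoded in an intron of the replication gene Mcm7, was at 9181, 12949.7 and 9408 CPM in controls 1 to 3 and at 6287, 7086 and 4419 CPM in knockouts 1 to 3 (log2 -0.83, SE 0.22, -0.55 without knockout 3). Both were without overlap, and DESeq2 called both. miR-25-3p at 2832, 2829 and 2588 CPM against 1862, 2295 and 2074 CPM (log2 -0.40, SE 0.17) and miR-19b-3p at 3363, 3243 and 2840.3 CPM against 2302, 2715 and 2372 CPM (log2 -0.35, SE 0.17) differed less. The groups did not overlap for them either.

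All 3 genomic copies of the cluster were on the lower side. The miR-17-92 locus of chromosome 14 had 9 of 9 negative with a median of -0.68, the miR-106a-363 locus of the X chromosome 7 of 7 with -0.64, and the miR-106b-25 locus of chromosome 5 6 of 6 with -0.47. Without knockout 3 these medians were -0.51, -0.31 and -0.38. By seed, the 6 sequences with AAAGUGC (the miR-17 seed) were all negative and summed to 16153 CPM in controls and 9286 CPM in knockouts. The 5 with AUUGCAC (the miR-92 seed) were all negative too and summed to 30392 against 16217 CPM. Per library, the AUUGCAC sum was 28918, 36768 and 25489 CPM in controls and 18255, 17284 and 13113 CPM in knockouts.

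Tubule miRNAs had the lowest median of the lists. The list holds miR-192, miR-194 and miR-215, abundant in proximal tubule, and miR-204 and miR-211, which lie in introns of TRPM channel genes. Of 10 names 8 were tested, all 8 were negative and 7 were lower without overlap (87.5%, beside 15.6% of all miRNAs), with a median of -1.23 and -1.06 without knockout 3. This median was -0.92 without control 3 and -1.40 without control 1. The summed level was 4374, 4240.1 and 6694 CPM in controls 1 to 3 and 2391, 2822 and 1986 CPM in knockouts 1 to 3. miR-192-5p (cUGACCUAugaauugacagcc, at chr19:6264857-6264877) was at 1562, 1433 and 3241 CPM in controls 1 to 3 and at 744, 783 and 749 CPM in knockouts 1 to 3. The knockouts lay within a narrow band and control 3 was far above the other controls, so that the log2 fold change of -1.45 (SE 0.39) became -0.99 without control 3. miR-194-5p was at 639, 754 and 1106 CPM in controls 1 to 3 and at 280.1, 373 and 391 CPM in knockouts 1 to 3 (log2 -1.26, SE 0.66), and miR-204-3p at 8.89, 15.6 and 11.9 CPM in controls 1 to 3 and at 5.27, 4.88 and 4.42 CPM in knockouts 1 to 3 (log2 -1.32, SE 0.28). The guide arm miR-204-5p was at 2142, 2005 and 2303 CPM in controls 1 to 3 and at 1349, 1648 and 828 CPM in knockouts 1 to 3 (log2 -0.75, SE 0.31, -0.42 without knockout 3).

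Members of the miR-30 family, which is abundant in podocytes and tubules, were negative for all 11 tested of 12 names, with 7 lower without overlap (63.6%, beside 15.6% of all miRNAs) and a median of -0.66 (-0.63 without knockout 3, -0.57 without control 3 and -0.85 without control 2). Its passenger arms differed most. miR-30a-3p was at 734, 793 and 748 CPM in controls 1 to 3 and at 367, 427 and 282 CPM in knockouts 1 to 3 (log2 -1.08, SE 0.24). miR-30c-2-3p was at 176, 127 and 183 CPM in controls 1 to 3 and at 75.1, 77.6 and 44.4 CPM in knockouts 1 to 3 (log2 -1.30, SE 0.31). Both were without overlap, knockout 3 was the lowest library, and the log2 fold changes without it were -0.84 and -0.997. The guide arm miR-30a-5p was at 1096, 875 and 1896 CPM in controls 1 to 3 and at 847, 374 and 756 CPM in knockouts 1 to 3 (log2 -0.97, SE 0.43, and -0.60 without control 3). The abundant miR-30d-5p, miR-30c-5p and miR-30b-5p overlapped. Their log2 fold changes were -0.24 (SE 0.31), -0.71 (SE 0.40) and -0.18 (SE 0.29), the last of which was 0.03 with total counts.

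The miR-200 family keeps epithelial cells epithelial by repressing Zeb1 and Zeb2, and it lies at 2 loci. Its 9 tested names of 10 had a median of -0.57, 7 negative and 4 without overlap, all 4 lower (44.4%, beside 15.6% of all miRNAs). Without knockout 3 the median was -0.18 with 5 of 9 negative, and it was -0.34 without control 1 and -0.31 without control 2. The 5 miRNAs of the chromosome 4 locus (miR-200a, miR-200b and miR-429) were all negative with a median of -0.74 (-0.33 without knockout 3), while the 4 of the chromosome 6 locus (miR-200c and miR-141) were centred on 0.03 (0.33 without knockout 3) with 0 without overlap. miR-429-3p was at 18264, 17254 and 16090.4 CPM in controls 1 to 3 and at 11769, 13872 and 5241 CPM in knockouts 1 to 3 (log2 -0.74, SE 0.34), and miR-200a-3p at 14263, 10877 and 14553 CPM in controls 1 to 3 and at 9585, 10152 and 3258 CPM in knockouts 1 to 3 (log2 -0.79, SE 0.40). Knockout 3 held the lowest values of both, and their log2 fold changes without it were -0.33 and -0.33. miR-200c-3p was at 2844, 3191 and 2890.4 CPM in controls 1 to 3 and at 4371, 3108 and 2779.8 CPM in knockouts 1 to 3, overlapping (log2 0.20, SE 0.24, 0.04 without knockout 1 and 0.42 without knockout 3). miR-200b-3p, of the same seed, was at 4579, 3841 and 3695 CPM in controls 1 to 3 and at 3055, 3057 and 1389.9 CPM in knockouts 1 to 3 (log2 -0.69, SE 0.31, -0.31 without knockout 3). The ratio of miR-200b-3p to miR-200c-3p was 1.61, 1.20 and 1.28 in controls and 0.699, 0.984 and 0.500 in knockouts, without overlap. This pair, too, was chosen after its values were seen.

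Hox cluster miRNAs, which lie among the Hox genes that pattern the body axis, had a median of -0.58 over 11 tested of 11 names, or -0.27 without knockout 3. Of these 10 were negative and 4 lower without overlap (36.4%, beside 15.6% of all miRNAs). miR-10a-5p was the most abundant miRNA of the control kidney, at 108035, 85939 and 99592 CPM in controls 1 to 3 and at 49966, 57709 and 25503 CPM in knockouts 1 to 3 (log2 -1.14, SE 0.32, edgeR adjusted p 0.108). Its fold was -0.77 without knockout 3, its lowest library. miR-10b-5p differs from it by 1 base outside the seed.
miR-10a-5p: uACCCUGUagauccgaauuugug
miR-10b-5p: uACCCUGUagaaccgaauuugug
miR-10b-5p was at 30651, 26741 and 29646 CPM in controls 1 to 3 and at 21009, 23629.7 and 13416 CPM in knockouts 1 to 3 (log2 -0.58, SE 0.26, -0.28 without knockout 3), also without overlap. miR-196b-5p was at 18421, 31647 and 15171 CPM in controls 1 to 3 and at 12094, 12384 and 8873 CPM in knockouts 1 to 3 (log2 -0.97, SE 0.29, -0.62 without control 2), and miR-196a-5p at 18516, 27632 and 12401 CPM in controls 1 to 3 and at 12017, 13075 and 9672 CPM in knockouts 1 to 3 (log2 -0.75, SE 0.30, -0.44 without control 2). For miR-196a-5p control 3 lay within the knockout range.

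The let-7 family, which represses growth-promoting mRNAs and accumulates in differentiated cells, had 23 tested of 23 names, 19 negative and 12 lower without overlap (52.2%, beside 15.6% of all miRNAs), with a median of -0.41 (-0.25 without knockout 3, where 15 were negative). The 10 tested sequences with the let-7 seed GAGGUAG were all negative, 9 without overlap, and their sum was 184313, 189210.2 and 177959 CPM in controls and 126336, 151463 and 115737 CPM in knockouts. let-7i-5p was at 41168, 38654 and 39231 CPM in controls 1 to 3 and at 26906, 30234 and 20762 CPM in knockouts 1 to 3 (log2 -0.61, SE 0.16, -0.38 without knockout 3). let-7a-5p was at 33544, 35656 and 30267 CPM in controls 1 to 3 and at 24924, 31445 and 21861 CPM in knockouts 1 to 3, where knockout 2 lay above control 3 (log2 -0.35, SE 0.24, -0.13 without knockout 3). For let-7c-5p the log2 value was -0.29 (SE 0.22), or -0.14 without knockout 1, and for let-7f-5p -0.41 (SE 0.25), or -0.15 without knockout 3, both without overlap. The passenger arms were not uniform. let-7a-2-3p, named after its values were seen, had a log2 fold change of 0.61 (SE 0.28), higher without overlap, and it was rare.

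miRNAs of the miR-99/100, let-7 and miR-125 clusters, which repeat the same order of hairpins at 3 loci, had different values by locus. The locus of chromosome 17 (miR-99b, let-7e and miR-125a) had 6 of 6 negative with a median of -0.22, which was 0.04 without knockout 3. The locus of chromosome 9 (miR-100, let-7a-2 and miR-125b-1) had 4 of 4 positive, all 4 without overlap (beside 12.9% of all miRNAs), with a median of 0.55 (0.67 without knockout 3). The locus of chromosome 16 (miR-99a, let-7c-1 and miR-125b-2) had 4 of 4 positive with a median of 0.42. miR-100-5p was at 4704, 5686 and 5153 CPM in controls 1 to 3 and at 6019.5, 7856 and 7915 CPM in knockouts 1 to 3 (log2 0.49, SE 0.21), without overlap. miR-99b-5p was at 30551, 33128 and 33623 CPM in controls 1 to 3 and at 34360.3, 37297 and 20196 CPM in knockouts 1 to 3, overlapping (log2 -0.08, SE 0.24, and 0.24 without knockout 3). miR-125a-5p was at 4708, 5216 and 6116 CPM in controls 1 to 3 and at 4191, 3328 and 4094 CPM in knockouts 1 to 3 (log2 -0.47, SE 0.19), without overlap.

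**Figure D3:**
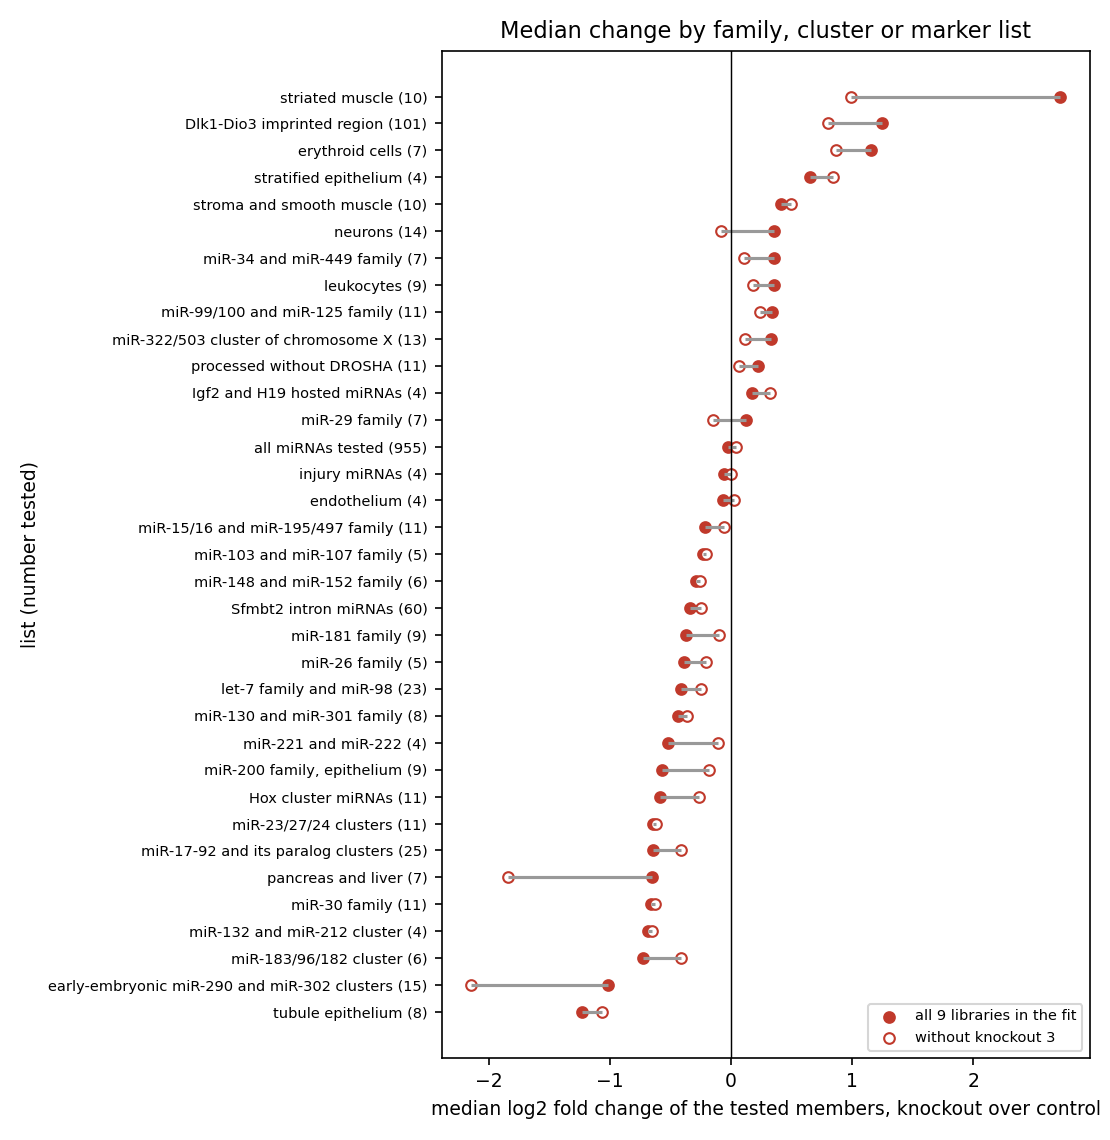
Median log2 fold change of the tested members of each list (rows, number tested in brackets) with all libraries (filled) and without knockout 3 (open). The striated muscle median is 2.72 with and 0.99 without knockout 3, while those of the tubule (-1.23 and -1.06) and miR-30 lists (-0.66 and -0.63) move little with this library. Fits without a control library are not drawn.

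Striated muscle miRNAs had the highest median, and it rested mostly on 1 library. Of 15 names 10 were tested and 9 were positive, with a median of 2.72 and 0 without overlap in either direction. DESeq2 called 8 of the 10 higher, beside 7.75% of all miRNAs, although each overlapped between the genotypes. The list summed to 1266, 295 and 225 CPM in controls 1 to 3 and 2094, 465 and 10601 CPM in knockouts 1 to 3. Knockout 3 was far above every other library, and control 1 lay above control 2, control 3 and knockout 2. Without knockout 3 the median was 0.99. miR-133a-3p, which with miR-1 guides muscle cell differentiation, was at 106, 36.8 and 35.9 CPM in controls 1 to 3 and at 361, 36.8 and 1253 CPM in knockouts 1 to 3 (log2 3.21, SE 1.03, 1.81 without knockout 3). miR-1a-3p was at 89.7, 34.7 and 22.9 CPM in controls 1 to 3 and at 154, 48.6 and 677 CPM in knockouts 1 to 3 (log2 2.58, SE 0.98, 1.12 without knockout 3). The myogenic miR-206-3p had a log2 fold change of 2.99 (SE 1.33), or 1.09 without knockout 3, and the heart and slow muscle miRNA miR-499-5p one of 2.22 (SE 0.81), or 0.89. Knockout 3 held the highest sum of both the muscle and the Dlk1-Dio3 lists. Among knockouts 1 and 2 the orders were opposite: knockout 1 had more muscle miRNA, and knockout 2 more Dlk1-Dio3 miRNA.

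Erythroid miRNAs had positive log2 fold changes for all 7 tested names of 7, with a median of 1.16 (0.87 without knockout 3). Only 2 were higher without overlap (28.6%, beside 12.9% of all miRNAs), and neither edgeR nor DESeq2 called any. miR-451a is the main miRNA of red blood cell precursors, and its hairpin is cut by AGO2 in place of DICER after DROSHA has released it. It was at 51582, 47467 and 20939.9 CPM in controls 1 to 3 and at 69489, 71955 and 109692 CPM in knockouts 1 to 3, without overlap (log2 1.07, SE 0.45, edgeR adjusted p 0.184). Control 3 was the lowest library, and the fold was 0.74 without it. miR-144-3p, its neighbour on chromosome 11, was at 653, 465 and 202.8 CPM in controls 1 to 3 and at 985, 537 and 1933 CPM in knockouts 1 to 3, where control 1 exceeded knockout 2 (log2 1.39, SE 0.58, 0.88 without knockout 3). For miR-486a-5p and miR-486b-5p no sequence was matched, and which name held more reads changed between libraries. How reads were split between them is not known, and both are counted among the 7. Their sum was 504, 969 and 300.2 CPM in controls and 1338, 1032 and 1931 CPM in knockouts, so the sum did not overlap although each name did.

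Stromal and smooth muscle miRNAs had a median of 0.41 over 10 tested of 11 names, 8 positive and 3 higher without overlap (30.0%, beside 12.9% of all miRNAs). One of the 3 is miR-199a-3p, whose count depends on how reads were split between names. miR-199a-3p and miR-199b-3p have the same mature sequence in RefSeq.
miR-199a-3p: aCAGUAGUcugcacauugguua
miR-199b-3p: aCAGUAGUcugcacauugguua
miR-199a-3p was at 1642, 3599.9 and 4493 CPM in controls 1 to 3 and at 27484, 5851 and 5969 CPM in knockouts 1 to 3, and miR-199b-3p at 23693, 23767 and 22322 CPM in controls 1 to 3 and at 1290.2, 29482 and 28555 CPM in knockouts 1 to 3. In knockout 1 nearly all reads were under the first name, and in the other 5 libraries most were under the second. The log2 fold changes of these names, 2.01 (SE 0.81) and -0.23 (SE 0.98), therefore cannot be read alone. Their sum was 25335, 27367 and 26815 CPM in controls and 28775, 35333 and 34524 CPM in knockouts, a ratio of means of 1.24, without overlap. miR-199a-5p was at 3513, 4911 and 5245 CPM in controls 1 to 3 and at 7063, 5313 and 6113 CPM in knockouts 1 to 3 (log2 0.44, SE 0.23, 0.25 without control 1). The smooth muscle miR-143-3p overlapped, with a log2 fold change of -0.18 (SE 0.19) that was 0.03 with total counts.

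The stratified epithelium list, miR-203 and miR-205, was higher without overlap for all 4 tested of 4 names, beside 12.9% of all miRNAs, with a median of 0.65 and 0.84 without knockout 3. miR-205-5p, known from epidermis and other layered epithelia, was at 263, 289 and 214.2 CPM in controls 1 to 3 and at 594, 344 and 446 CPM in knockouts 1 to 3 (log2 0.85, SE 0.28). miR-203-3p was at 484, 497.2 and 533 CPM in controls 1 to 3 and at 804, 611 and 578 CPM in knockouts 1 to 3 (log2 0.40, SE 0.20). In both, knockout 1 was the highest library, unlike for the Dlk1-Dio3, muscle and erythroid lists.

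**Figure D4:**
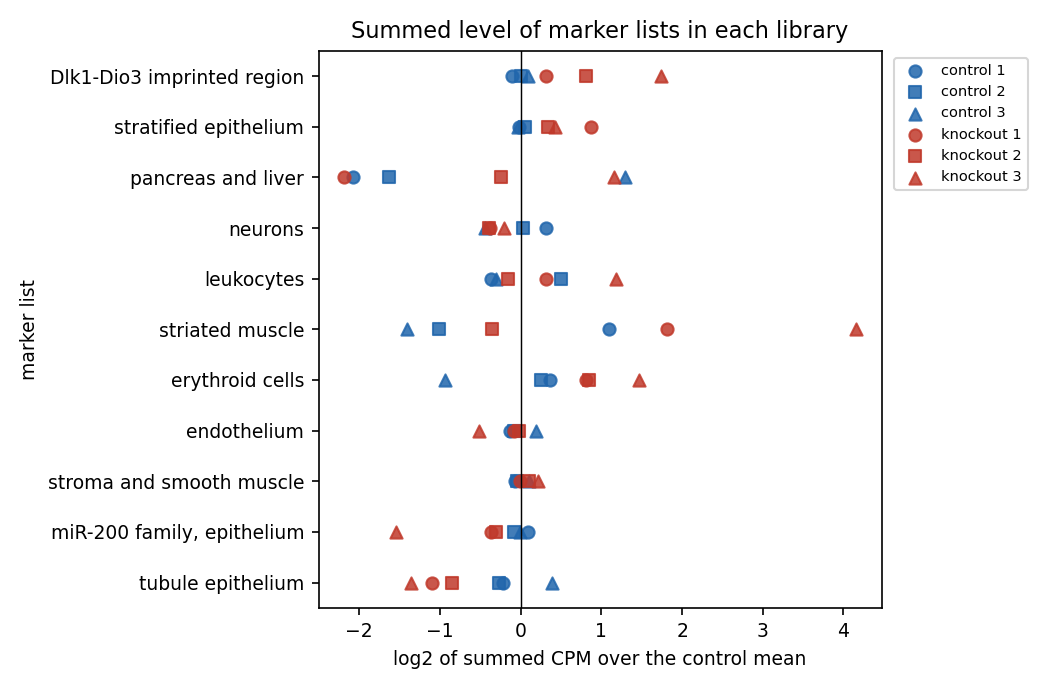
Summed CPM of 11 lists in each library, as log2 over the mean of the 3 controls (horizontal axis), with symbols by replicate and colour by genotype. Knockout 3 is the highest library for the Dlk1-Dio3, leukocyte, striated muscle, erythroid and stroma lists and the lowest for the miR-200, endothelium and tubule lists, and control 3 the highest for pancreas and liver and the lowest for striated muscle and erythroid cells.

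Other cell type lists overlapped between the genotypes. Endothelial miR-126 names had a median of -0.07 (4 tested of 4, 2 positive), which turned positive with total counts (0.14) and all counted reads (0.04). miR-126a-3p was at 43764, 45222 and 54563 CPM in controls 1 to 3 and at 44992, 47592 and 32475 CPM in knockouts 1 to 3 (log2 -0.20, SE 0.18). Leukocyte names had a median of 0.35 over 9 tested of 9 (0.18 without knockout 3). miR-142a-5p, a blood cell miRNA named after its values were seen, was at 33.1, 33.7 and 28.7 CPM in controls 1 to 3 and at 108, 46.1 and 294 CPM in knockouts 1 to 3, without overlap (log2 2.23, SE 0.64, 1.36 without knockout 3). The more abundant arm miR-142a-3p overlapped, with knockout 2 at 134.6 CPM below controls 1 and 2 at 197.8 and 184.9 CPM. Its log2 fold change was 1.21 (SE 0.64), or 0.54 without knockout 3. miR-223-3p, of myeloid cells, overlapped (log2 0.55, SE 0.41), as did miR-155-5p (-0.63, SE 0.36) and miR-150-5p (-0.76, SE 0.73). Neural names had a median of 0.36 over 14 tested of 17, with 0 without overlap, and -0.09 without knockout 3. miR-124-3p, the main miRNA of neurons, was at 669, 44.1 and 24.5 CPM in controls 1 to 3 and at 43.7, 63.7 and 915 CPM in knockouts 1 to 3, high in 1 library of each genotype. miR-9-5p, the most abundant of the list here, was at 2319, 2489 and 1715 CPM in controls and 1765, 1709 and 668 CPM in knockouts (log2 -0.66, SE 0.39, -0.22 without knockout 3).

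The pancreas and liver list had 7 tested of 13 names, 1 positive and 6 negative, with a median of -0.65 (-1.84 without knockout 3). Of these, 1 was higher without overlap (14.3%, beside 12.9% of all miRNAs) and 2 were lower (28.6%, beside 15.6%). The 1 positive name was miR-375-3p, an endocrine and pancreatic islet miRNA, higher without overlap. It was at 388, 616 and 329 CPM in controls 1 to 3 and at 737, 2279 and 4856 CPM in knockouts 1 to 3 (log2 2.56, SE 0.74, edgeR adjusted p 0.108, 1.88 without knockout 3). Also high in knockouts 2 and 3 was miR-7b-5p, a further miRNA of neuroendocrine cells, at 45.0, 11.5 and 4.67 CPM in controls 1 to 3 and at 13.8, 552 and 2940.1 CPM in knockouts 1 to 3. Its log2 fold change of 5.84 (SE 1.75) was the highest of all 955, but knockout 1 lay below control 1, so the groups overlapped. Without knockout 3 this fold was 3.90. The knockout libraries had the same order for miR-7a-2-3p, at 1.73, 2.13 and 4.08 CPM in controls 1 to 3 and at 2.23, 22.3 and 70.6 CPM in knockouts 1 to 3 (log2 3.58, SE 1.0, 2.32 without knockout 3). Both miR-7 names were chosen after their values were seen. The liver miRNA miR-122-5p was at 785, 991 and 11854 CPM in controls 1 to 3 and at 368, 1969.9 and 6323 CPM in knockouts 1 to 3, so control 3 and knockout 3 were both high, and its log2 fold change of -0.65 (SE 1.45) was 1.67 without control 3. miR-802-5p, of the same list and rare here, was lower without overlap, at 7.92, 7.04 and 13.3 CPM in controls 1 to 3 and at 2.84, 1.91 and 0.869 CPM in knockouts 1 to 3 (log2 -2.33, SE 1.30).

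Control 3 also stood out for early-embryonic and germ cell miRNAs. The miR-290 cluster, typical of pluripotent cells, and the miR-302 cluster together had 15 tested of 23 names and a median of -1.02, which was 1.82 without control 3. miR-292a-3p was at 3.74, 1.71 and 83.6 CPM in controls 1 to 3 and at 1.82, 13.6 and 18.0 CPM in knockouts 1 to 3 (log2 -1.41, SE 1.70, 2.01 without control 3). miR-202-5p, a gonadal miRNA, was at 23.2, 2.79 and 565 CPM in controls 1 to 3 and at 1.35, 61.2 and 85.9 CPM in knockouts 1 to 3 (log2 -1.99, SE 2.26, 1.90 without control 3). These miRNAs were named after their values were seen, and 1 library decided the sign of each. The same library held most reads of a minus-strand X chromosome cluster with miR-465, miR-470 and miR-871, known from testis, which had 5 of 6 tested miRNAs negative and a median of -3.12 and was likewise picked after its values were seen. Of the miR-302 names, miR-302b-3p (1.55, SE 0.50) and miR-302d-3p (1.41, SE 0.42) were higher without overlap at levels of a few CPM. Both were likewise named after their values were seen. Counted in only 1 genotype with at least 10 reads were miR-471-5p and miR-743a-5p, with 0, 1 and 18 and with 0, 1 and 27 reads in controls 1 to 3. In the knockout alone were miR-3070-3p, with 2, 2 and 11 reads, and miR-7025-5p, with 6, 4 and 0. Of these, miR-3070-3p alone was read in all 3 libraries of its genotype.

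Precursors that are known to form without DROSHA (mirtrons and capped or snoRNA-derived hairpins) had 11 tested of 13 names, 8 positive and 2 higher without overlap (18.2%, near the 12.9% of all miRNAs), with a median of 0.22 beside -0.03 over all miRNAs. Without single libraries this median ranged from 0.04 (without control 2) to 0.39 (without control 3), and it was 0.07 without knockout 3. Under the scaling made from this list its median is near 0 (-0.0004) by construction. miR-484, whose hairpin is the capped start of a transcript, was at 2103, 2417 and 2399.5 CPM in controls 1 to 3 and at 4371, 2571 and 1826 CPM in knockouts 1 to 3. Knockout 1 was well above all others and knockout 3 below all controls (log2 0.34, SE 0.31, -0.01 without knockout 1). miR-320-3p, likewise made from a capped hairpin, was at 607, 809.6 and 839 CPM in controls 1 to 3 and at 1047, 433 and 810.3 CPM in knockouts 1 to 3 (log2 0.02, SE 0.33). miR-1839-5p overlapped too (-0.23, SE 0.23), and so did the mirtron miR-877-5p, at 79.8, 129 and 89.4 CPM in controls 1 to 3 and at 97.5, 43.6 and 62.8 CPM in knockouts 1 to 3 (log2 -0.55, SE 0.33). The list held both signs among its abundant members. Its summed level was 3259.8, 3735 and 3841 CPM in controls 1 to 3 and 5904, 3418 and 3161 CPM in knockouts 1 to 3.

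Of the 10 most abundant control miRNAs, 4 were lower without overlap, 5 overlapped and miR-451a was higher. miR-26a-5p was at 61435, 54956 and 59338 CPM in controls 1 to 3 and at 42735, 51045 and 40867 CPM in knockouts 1 to 3 (log2 -0.38, SE 0.17, -0.22 without knockout 3). miR-322-5p, the mouse counterpart of miR-424, encoded on the X chromosome, was at 28645, 29812 and 30506 CPM in controls 1 to 3 and at 17938, 22620.2 and 18493 CPM in knockouts 1 to 3 (log2 -0.59, SE 0.14), and DESeq2 called it. No knockout library reached any control for either. The miR-322 cluster as a whole, this miRNA included, was not uniform, with 9 of 13 tested names positive and a median of 0.33 (0.12 without knockout 3).

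The remaining families are given by counts. With all libraries, negative in all tested members were miR-130 and miR-301 (8 of 8, median -0.43), miR-181 (9 of 9, -0.37), miR-148 and miR-152 (6 of 6, -0.29), miR-132 and miR-212 (4 of 4, -0.68) and miR-221 and miR-222 (4 of 4, -0.52). Without knockout 3 the miR-181 median was -0.10 with 8 of 9 negative, that of miR-221 and miR-222 -0.11 with 3 of 4 negative, and 3 of 4 names of miR-132 and miR-212 were negative. The cluster of miR-183, miR-96 and miR-182, known from sensory cells, had 5 of 6 negative (-0.73), miR-26 4 of 5 (-0.38), miR-103 and miR-107 4 of 5 (-0.23), and miR-15, miR-16 and relatives 8 of 11 (-0.21). Without knockout 3 the medians were -0.41 for the miR-183 cluster, -0.20 for miR-26 and -0.06 for miR-15 and relatives, and without control 2 that of miR-103 and miR-107 was -0.09. With total counts the medians were -0.0039 for miR-103 and miR-107, -0.0075 for miR-15 and relatives and -0.07 for miR-148 and miR-152. The miRNAs of the Sfmbt2 intron, a large mouse cluster, had 42 of 60 negative (-0.34, -0.21 without control 2 and -0.55 without control 3). Of these names 8 were lower without overlap, or 13.3%, which is no more than the 15.6% of all miRNAs. Positive medians were found for miR-34 and miR-449 (0.35, 5 of 7 positive, 0.11 without knockout 3) and for the miRNAs hosted by Igf2 and H19 (0.17, 3 of 4), the latter ranging from 0.05 without knockout 2 to 0.37 without control 2. The miR-29 median (0.13, 4 of 7 positive) turned negative without knockout 3 (-0.15, 2 of 7 positive) and with the DROSHA-independent scaling (-0.07), and was 0.42 without knockout 1. That of the injury miRNAs (-0.05, 2 of 4 positive) turned positive with total counts (0.16) and with all counted reads (0.06). In each of these lists fewer than 4 names were without overlap in either direction, except the Sfmbt2 list. As shares, these were 60.0% for miR-26 and 33.3% for miR-148 and miR-152 and for the miR-183 cluster, beside 28.5% of all miRNAs. Injury miRNAs, miR-103 and miR-107, and miR-130 and miR-301 lay between miR-26 and the miR-183 cluster. The other lists of this paragraph had 0% to 27.3%. Most of these lists are small, and their shares are descriptions without a test.

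Both arms of a hairpin come from the same precursor. Of 306 hairpins with both arms tested, both were positive in 103, both negative in 117 and of opposite sign in 86. Across hairpins the log2 fold changes of the arms had a Pearson r of 0.77 and a Spearman rho of 0.69, which describes hairpins of the same libraries and depth and is no test. Outside the Dlk1-Dio3 list the sign was shared in 173 of 259 hairpins (r 0.70). The more abundant arm had a median log2 fold change of -0.10 and the other arm of 0.05. The balance of arms, tested with edgeR across all 306 hairpins, was called in 0 (0%), with a smallest adjusted p of 0.0587, and 23 had an unadjusted p under 0.05 (7.52%).

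**Figure D5:**
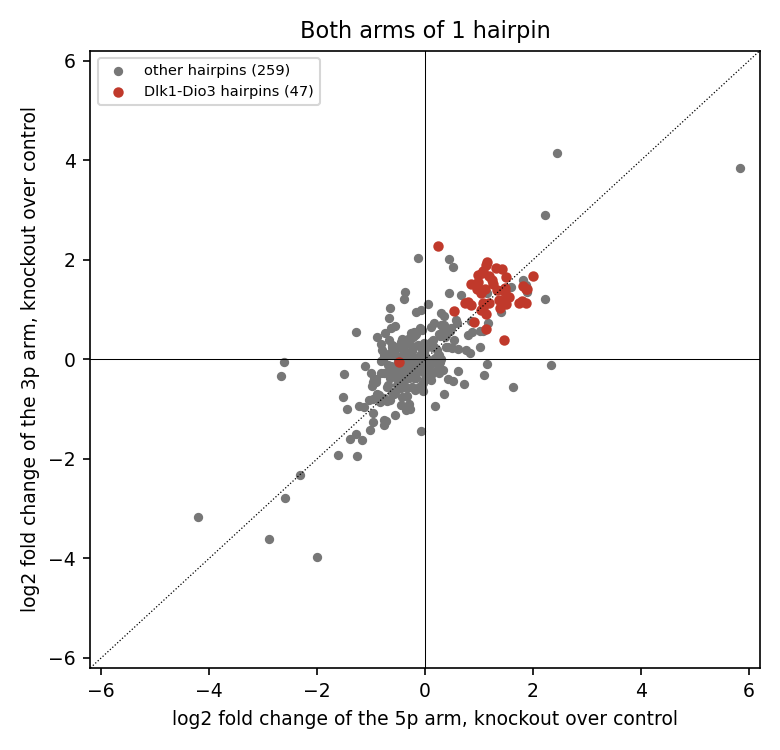
Log2 fold change of the 5p arm (horizontal axis) and the 3p arm (vertical axis) of 306 hairpins, with 47 hairpins of the Dlk1-Dio3 list in red and the line of equal values dotted. Among the red points 46 have both arms above 0, and the other, miR-1247, has both below 0.

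The smallest of these p-values belonged to miR-342, from an intron of Evl. Its log2 ratio of 5p to 3p reads was -2.54, -2.04 and -2.79 in controls and -3.47, -3.72 and -3.51 in knockouts, without overlap. miR-342-5p was at 179, 269 and 180.3 CPM in controls 1 to 3 and at 127.9, 115 and 113 CPM in knockouts 1 to 3, and miR-342-3p at 1039.8, 1110.2 and 1249 CPM in controls 1 to 3 and at 1413, 1507 and 1291 CPM in knockouts 1 to 3. The knockouts were lower for the 5p arm and higher for the 3p arm. The log2 fold changes of the arms differed by -1.13 (edgeR adjusted p 0.0587), by -0.89 without control 2 and by -1.30 without control 3. With both arms at 10 CPM or more, fewer hairpins were tested and the edgeR adjusted p of miR-342 was 0.0156. The next hairpins were miR-26b, at 8.40, 9.61 and 8.25 in controls and 7.61, 7.37 and 7.93 in knockouts, and the mirtron miR-877, at 4.02, 4.30 and 4.13 in controls and 2.97, 2.68 and 3.16 in knockouts. Both were without overlap, and neither passed (edgeR adjusted p 0.462 each). Their 3p arms were rare, at 12.3 and 5.49 CPM on average in controls. Over all hairpins the median log2 ratio was 0.64, 0.69 and 0.62 in controls and 0.53, 0.67 and 0.42 in knockouts, which overlapped.

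Groups without overlap were more frequent among abundant miRNAs. The shares of all miRNAs given beside the lists above were not matched for level. Tested miRNAs were cut into 4 bins by mean level. In the highest bin (136 CPM and above, 239 miRNAs), 45.2% were without overlap, 42 higher and 66 lower, and the median SE was 0.30. In the lowest bin (up to 1.31 CPM) 13.0% were, and the median SE was 0.47. Medians of the log2 fold change were 0.06, -0.05, -0.0068 and -0.14 from the lowest to the highest bin. Sequences of 798 tested miRNAs allowed the base composition to be set beside the values. The bin of lowest GC content (up to 42.9%) had a median of -0.08 and 22 higher and 39 lower without overlap. The bin of highest GC content (59.1% and above) had 0.19 with 31 higher and 17 lower. By their 5′ base, the medians were -0.06 for U, -0.03 for C, 0.11 for A and 0.13 for G. What part GC content has in the results was not tested.

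Mature miRNAs took a smaller share of all counted reads in the knockout. The share was 81.9%, 80.9% and 81.8% in controls 1 to 3 and 74.7%, 76.7% and 77.0% in knockouts 1 to 3. No knockout library reached a control. The means were 81.5% ± 0.527 and 76.1% ± 1.28 (SD, n = 3 each), a difference of -5.41 percentage points. The exact two-sided permutation p was 0.1, the smallest that 3 against 3 libraries allow. Repeat-derived reads were at 3.89%, 4.24% and 3.58% in controls and 6.67%, 7.04% and 4.82% in knockouts, and reads assigned to Rfam microRNA families at 6.26%, 6.07% and 5.67% and at 7.26%, 7.14% and 10.2%. With those families added to the mature reads the difference was -3.19 points and the groups overlapped (exact permutation p 0.2). These shares say nothing of the amount of miRNA per cell, since each is relative to the reads of its own library.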

How the data were processed

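Small RNA was prepared from whole kidneys by Trizol extraction and BGI's small RNA library protocol, per the labels' protocols. The submitters' processing notes list CASAVA 1.8, Bowtie2 and mm10, and roles or counting rules, strand use among them, are not given in the sources used here. The deposited files give a raw read count per small RNA name, and every test used these counts. The CPM values of the text were computed here with edgeR, and the deposited column of CPM values (named TPM by the authors) was not used. Mature and hairpin entries of a name were summed, with 488 or fewer hairpin reads in a library. Counts of names not starting with mmu- entered only the totals of counted reads (31743004 to 42609889 per library).

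R 4.3.3 with edgeR 4.0.16 was used: TMM factors, the default filterByExpr filter, a quasi-likelihood F test on all 9 libraries with genotype as the factor, the contrast knockout minus control, and Benjamini-Hochberg adjustment at 0.05. The common biological coefficient of variation was 0.49. Arm balance was tested with edgeR's diffSpliceDGE. DESeq2 1.42.0, limma 3.58.1 (voom), other scalings and filters, a replicate term and leaving out libraries were alternatives. The scripts were tested on simulated counts. Named miRNAs were the 10 of each direction with the smallest p among those of at least 10 CPM, with their other arms, the 10 most abundant of the controls, the up to 4 most abundant of each list and the 3 hairpins with the smallest arm-balance p. Others were chosen after their values were seen. Members and lists were chosen with earlier results of these data known. Sequences and positions come from RefSeq (GRCm38.p6), matched by name for 798 of the 955 tested miRNAs. The comparison with the transgene libraries was left out.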

Additional observations from a re-analysis of the deposited data

How the results depend on the processing

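With 0 calls by edgeR in each direction as the base, DESeq2 called 74 higher and 39 lower, and limma voom called 0 in each direction. Leaving out single libraries gave 0 to 44 higher and 0 to 4 lower calls, the largest counts without knockout 1. At an unadjusted p under 0.05 there were 96 higher miRNAs with DROSHA-independent scaling, 98 at a minimum of 10 CPM and 91 to 167 without single libraries (92, 91 and 97 without controls 1, 2 and 3). Lower ones numbered 47 with total counts, 56 at a minimum of 10 CPM, 60 with 6 libraries in the fit and 65 to 99 without single libraries. Groups did not overlap for 21.2% higher and 8.27% lower of the tested miRNAs with total counts, a choice made after seeing the data. Without single libraries the higher share was 16.8% to 21.8% and the lower share 19% to 21.3%. With 2 libraries in a group, fewer values have to be separated. For arm balance, a minimum of 10 CPM in both arms gave 1 call and 10 hairpins at an unadjusted p under 0.05, from fewer hairpins tested, and leaving out single libraries gave 13 (without control 2) to 41 (without knockout 2) such hairpins. The share of mature reads differed by -5.85 to -4.67 points without single libraries.

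Among the miRNAs picked for naming, fold changes changed sign as follows, and the cause was not tested. Sign changes of the other tested miRNAs are not listed. With total counts the log2 value was 0.014 for miR-126a-3p, 0.025 for miR-143-3p, 0.13 for miR-99b-5p, 0.076 for miR-181a-5p, 0.19 for miR-27a-3p and 0.030 for miR-30b-5p. With all counted reads it was 0.031 for miR-99b-5p and 0.088 for miR-27a-3p. With DROSHA-independent scaling it was -0.0083 for miR-23a-3p, -0.18 for miR-320-3p and -0.0085 for miR-124-3p. With limma voom it was -0.045 for miR-320-3p and 0.0034 for miR-150-5p, and with no filter 0.020 for miR-27a-3p. Over all 955 tested miRNAs, 467 were positive with all libraries and 508 without knockout 3. Of the miRNAs picked for naming, leaving out single libraries turned the sign of 14, with the following ranges. The sign turned without knockout 3 at -0.34 to 0.047 for miR-126a-3p, -0.28 to 0.24 for miR-99b-5p, -0.020 to 0.31 for miR-23a-3p and -1.56 to 3.65 for miR-137-3p. It turned without control 3 or knockout 3 at -0.13 to 0.17 for miR-27a-3p. A turn came without control 2, control 3 or knockout 3 at -2.11 to 3.27 for miR-124-3p. The turn came without control 3 at -2.62 to 1.90 for miR-202-5p, -2.02 to 2.01 for miR-292a-3p, -1.87 to 1.67 for miR-122-5p and -1.84 to 1.63 for miR-122-3p. The sign differed without knockout 1 at -0.0095 to 0.68 for miR-484 and -0.69 to 0.37 for miR-199b-3p. It differed without control 1 or knockout 1 at -0.25 to 0.27 for miR-320-3p. The sign turned without control 2 at -1.25 to 0.81 for miR-150-5p.

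The labels give control and knockout libraries the same replicate numbers. Deviations from the group means had correlations of -0.05, 0.06 and 0.10 for pairs 1, 2 and 3. Knockout 2 alone correlated best with its own number, though knockout 3 was nearly level between control 3 (0.10) and control 1 (0.11). Correlations this small cannot decide whether the numbers pair the libraries. With a replicate block edgeR called 0 miRNAs in each direction, with 103 higher and 86 lower at an unadjusted p under 0.05, and 17 hairpins for arm balance. The block gave miR-320-3p a log2 value of -0.016 and left the mature share's difference at -5.41 points (exact permutation p 0.25). The median SE was 0.47 among the rarest and 0.30 among the most abundant of 4 bins of tested miRNAs.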
